A study of Mus musculus with 14 samples.

Results

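The enzymes that make and remove reactive oxygen species were followed in retinal microglia through 9 genes, chosen by name from 47729 measured: the phagocyte NADPH oxidase subunits Cyba, Cybb, Ncf1 and Ncf4, and the antioxidant enzymes Sod1, Sod2, Prdx1, Gpx1 and Cat. The study asked how retinal microglia change in a mouse model of glaucoma, in which the output neurons of the retina are lost. It sequenced 14 SMART-Seq2 libraries, in which cDNA of whole transcripts is made from few cells, with 1 retina in each library. All mice were wild type C57BL/6 aged 12 weeks, and the groups were 3 retinas injected with microbeads (microbead, labelled as glaucoma), 3 retinas contralateral to a microbead injection (contralateral), 4 sham-injected retinas (sham) and 4 uninjected retinas (naive). Cells were sorted as CD11b-positive, Ly6c-negative and Fcrls-positive, the last being a surface protein of resident microglia, and a retina gave 100 to 600 cells. No label says which retinas came from the same mouse or from separate mice. The p-values below take the 14 libraries as independent and set group differences against the spread between these retinas. Contralateral and microbead retinas may share mice, and that pairing could not be used.

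The phagocyte oxidase is a membrane enzyme that passes electrons from NADPH to oxygen and so makes superoxide. Cybb (gp91phox, also called NOX2) holds the electron path and is stable only with its membrane partner Cyba (p22phox), while Ncf1 (p47phox) and Ncf4 (p40phox) are cytosolic subunits that join the membrane pair when the cell is activated. Superoxide dismutases turn superoxide into hydrogen peroxide, and catalase, glutathione peroxidase and peroxiredoxins then remove the peroxide. In microglia the oxidase serves killing, signalling and, in disease models, damage to neurons.

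None of the 9 genes differed between the groups past an adjusted p of 0.05 in the quasi-likelihood test of edgeR, which called 0 to 1.28% of all genes tested in the single comparisons. The gene nearest to that limit was Cyba, 1.91-fold higher in mean level in microbead retinas than in sham and naive retinas together, a log2 fold change of 0.93 that was −0.04 once a trend with transcript length, described below, was removed. The levels of Sod2 in microbead retinas all lay above those of the sham and naive libraries, as in 3.26% of all genes tested. They also lay above those of the contralateral libraries, as in 5.20%. Levels of Sod1, Gpx1, Prdx1 and Cat were also higher on average in microbead than in sham and naive retinas, while those of Cybb, Ncf1 and Ncf4 were not. Sod1 and Gpx1 are short like Cyba, and their log2 fold changes of 0.98 and 0.66 were −0.25 and 0.03 with that trend removed, where short genes as a group had a median of 0.90 as counted. A bulk library cannot tell fewer cells of a type from less RNA per cell.

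The libraries held 1340512 to 13995779 reads assigned to genes. The shallowest was microbead 1 with 1340512 reads and 10132 detected genes, and contralateral 2 had 10264 detected genes in 7601427 reads, while the other 12 libraries had 13411 to 16466. All 10 microglial markers examined had reads in every group, with a summed level of 14955 to 32340 CPM in microbead, 25216 to 37033 in contralateral, 31940 to 35361 in sham and 21231 to 33295 in naive retinas. CPM, the unit of level below, are a gene's reads scaled to a common library total, with TMM factors. Of 9 monocyte markers, Ly6c2, F10 and Chil3 had 0 reads in every library, and the list summed to 76.8 to 182 CPM in microbead, 2.68 to 53.9 in contralateral, 3.86 to 95.4 in sham and 2.30 to 13.6 in naive retinas. The part of such cells in the levels below was not tested. Neutrophils, which carry much of this oxidase, were near 0 by their markers, with at most 0.615 CPM over 10 genes in any library, and erythrocytes, which are rich in Cat and Prdx2, with at most 0.986 CPM over 6 genes. Rod photoreceptor markers summed to 511 to 4297 CPM in microbead, 2284 to 3893 in contralateral, 864 to 1667 in sham and 266 to 3400 in naive retinas.

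Promoter sequences of 4 genes are shown because their levels differ in pattern below: the membrane pair Cyba and Cybb, and the antioxidant genes Sod1 and Prdx1. They come from RefSeq on GRCm38.p6, the build of mm10, and run from 250 bases before to 50 bases after the annotated start, 5′ to 3′ on the gene's strand. Capitals mark matches on either strand to the core of the antioxidant response element (TGACNNNGC), the DNA site of the stress regulator NRF2, or to the core of the site of PU.1 (GAGGAA), a transcription factor of myeloid cells. Cyba is at chr8:122432891-122433190 on the minus strand and holds neither core. Cybb is at chrX:9469275-9469574 on the minus strand, inside the longer span that GENCODE M21 gives the gene, and holds 1 PU.1 core, read on the other strand. Sod1 is at chr16:90220512-90220811 on the plus strand and holds 1 antioxidant core on the other strand. Prdx1 is at chr4:116685349-116685648 on the plus strand and holds 1 match to each.
Cyba: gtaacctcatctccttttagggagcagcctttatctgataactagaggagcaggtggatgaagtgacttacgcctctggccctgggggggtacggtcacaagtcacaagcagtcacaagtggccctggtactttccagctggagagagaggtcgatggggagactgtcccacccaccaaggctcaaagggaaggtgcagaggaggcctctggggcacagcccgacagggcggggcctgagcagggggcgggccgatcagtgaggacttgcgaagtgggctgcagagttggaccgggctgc
Cybb: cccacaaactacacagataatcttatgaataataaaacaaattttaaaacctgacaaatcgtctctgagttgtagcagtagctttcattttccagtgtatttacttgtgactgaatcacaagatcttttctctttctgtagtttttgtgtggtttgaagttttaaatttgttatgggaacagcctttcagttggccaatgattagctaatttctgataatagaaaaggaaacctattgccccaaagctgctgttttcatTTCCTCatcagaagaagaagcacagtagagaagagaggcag
Sod1: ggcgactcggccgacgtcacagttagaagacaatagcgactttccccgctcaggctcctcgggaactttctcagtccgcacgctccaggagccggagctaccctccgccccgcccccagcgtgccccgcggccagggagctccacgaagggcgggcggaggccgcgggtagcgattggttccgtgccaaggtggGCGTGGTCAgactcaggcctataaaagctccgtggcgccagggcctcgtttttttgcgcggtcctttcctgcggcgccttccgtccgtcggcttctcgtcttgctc
Prdx1: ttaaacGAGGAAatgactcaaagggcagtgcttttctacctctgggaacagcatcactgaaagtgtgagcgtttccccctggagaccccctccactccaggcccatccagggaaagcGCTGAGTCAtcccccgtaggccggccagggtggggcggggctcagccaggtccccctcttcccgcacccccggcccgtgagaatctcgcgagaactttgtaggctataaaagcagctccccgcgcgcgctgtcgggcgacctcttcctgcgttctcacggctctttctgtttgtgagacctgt

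Of the 9 genes, 8 had a promoter window. The antioxidant core was in 2 of these, Sod1 and Prdx1, and in 12.4% of 32851 windows of all genes. The PU.1 core was in 4, namely Cybb, Sod2, Prdx1 and Cat, and in 28.3% of all windows. The cores do not overlap in any of the printed windows. A match is a run of letters and was not examined for binding.

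Measured per transcript length, the 9 genes formed 3 tiers by their medians. In FPKM, fragments scaled to transcript length and library total, Cyba had a median over the 14 libraries of 789 (range 606 to 1766) and Gpx1 of 546 (393 to 797), and the ranges of these neighbours overlapped. Next came Ncf1 with a median of 200.4 FPKM (138 to 383), Prdx1 with 172 (30.6 to 392), Sod1 with 151 (95.4 to 387) and Ncf4 with 124 (41.2 to 255), all overlapping one another. Lowest were Cat with 18.6 FPKM (1.88 to 37.7), Cybb with 18.3 (0.50 to 46.0) and Sod2 with 12.2 (0 to 23.6), again overlapping. No library of the middle genes reached the lowest library of Gpx1, while the lowest libraries of Prdx1 and Ncf4 lay within the ranges of the low genes. The oxidase thus had its membrane partner Cyba at the top and its catalytic subunit Cybb near the bottom of the same list. The tables give Cybb a transcript length of 1060 to 4752 bases depending on the library, so its level per length also carries that estimate.

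Cyba, on chromosome 8 (mm10, 122424776 to 122432930, minus strand), had 883, 449 and 548 CPM in microbead libraries 1 to 3. It had 467, 378 and 285 CPM in contralateral, 269, 315, 373 and 360.0 CPM in sham and 336, 364, 314 and 295 CPM in naive libraries. Every microbead library lay above every sham and naive library, while contralateral 1 lay above microbead 2. The group averages were 627 ± 228 CPM in microbead (SD, n = 3), 377 ± 91.4 in contralateral (n = 3), 329 ± 47.4 in sham (n = 4) and 327 ± 29.98 in naive retinas (n = 4). The log2 fold change was 0.93 against sham (SE 0.27, edgeR adjusted p = 0.203), 0.94 against naive (SE 0.27, adjusted p = 0.170) and 0.73 against contralateral retinas (SE 0.29, adjusted p = 0.362). Against sham and naive together it was 0.93 with a 95% interval of 0.45 to 1.42 and an adjusted p of 0.0560. That call depended on the method: the Wald test of DESeq2 gave an adjusted p of 0.00732 and limma voom 0.111, within a range of 0.00732 to 0.985 over 23 alternatives. Without microbead 1 the log2 fold change was 0.58 with an adjusted p of 0.424, and with the length trend removed it was −0.04. Gm20388 overlaps Cyba on the opposite strand, and the counts of such a pair cannot be told apart if strand was not used.

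Cybb, on the X chromosome (9435252 to 9487771, minus strand), had another pattern than its partner. It had 2.15, 64.7 and 65.6 CPM in microbead libraries, of which the first rests on 3 reads. It had 7.04, 8.83 and 135 CPM in contralateral, 11.2, 112, 80.4 and 44.7 CPM in sham, and 58.0, 50.7, 67.6 and 53.8 CPM in naive libraries. The naive libraries were close together, while each of the other groups held at least 1 library far below the naive ones. The means were 44.2 ± 36.4 CPM in microbead and 57.5 ± 7.37 CPM in naive retinas (SD, n = 3 and 4). The log2 fold change was −0.48 against sham, −0.37 against naive and −0.17 against contralateral retinas, with SE of 0.99, 0.99 and 1.05, so its interval against naive reached from −2.43 to 1.70. Without microbead 1 it was 0.15 against naive. Within a library, the ratio of Cyba to Cybb in FPKM was 51.3 and 43.1 in microbead 2 and 3 and 3532 in microbead 1, against 16.7 to 130.3 in contralateral, 15.6 to 94.0 in sham and 30.2 to 45.9 in naive libraries.

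The cytosolic subunits showed no difference beyond their spread. Ncf1, the organizer subunit on chromosome 5 (134220053 to 134229625, minus strand, overlapped by Gtf2ird2 on the other strand), had 379.9, 379 and 542 CPM in microbead and 393, 746 and 433 CPM in contralateral libraries. It had 416, 533, 596 and 523 CPM in sham and 449.9, 491, 369.9 and 434 CPM in naive libraries. All groups overlapped, and its log2 fold change in microbead retinas was −0.25 against sham (95% interval −0.81 to 0.31), −0.01 against naive (−0.57 to 0.55) and −0.27 against contralateral retinas (−0.87 to 0.32). Ncf1 and Cyba were the members of narrowest spread, with biological coefficients of variation of 0.322 and 0.326. Ncf4, the adaptor subunit on chromosome 15 (78244801 to 78262580, plus strand), had 26.6, 96.2 and 114 CPM in microbead, 206, 69.4 and 71.2 CPM in contralateral, 53.4, 81.3, 80.4 and 85.4 CPM in sham and 60.3, 119, 88.0 and 74.5 CPM in naive libraries. Its lowest and highest libraries were microbead 1 and contralateral 1, and its log2 fold change was 0.08 against sham, −0.10 against naive and −0.54 against contralateral retinas, with SE of 0.50 to 0.54.

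**Figure D1:**
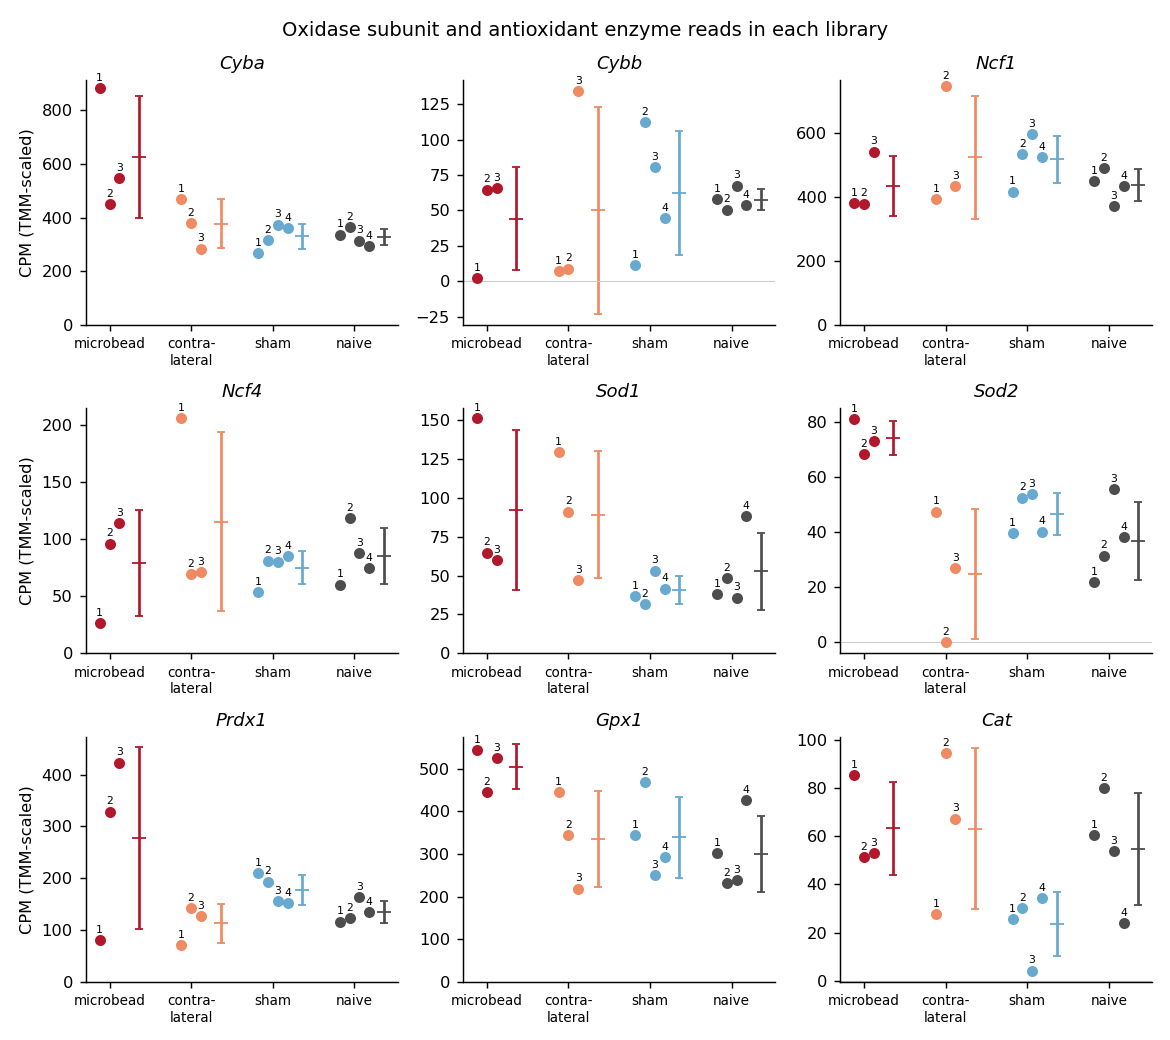
Reads of each of the 9 genes in CPM (vertical axis, TMM-scaled), with 1 point per library numbered by replicate, and beside each group its mean and SD. Cyba and Sod2 of the 3 microbead libraries lie above every sham and naive library, while Cybb, Ncf1 and Ncf4 overlap between all groups.

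The superoxide dismutases differed from each other in pattern. Sod1, the copper and zinc enzyme of the cytosol on chromosome 16 (90220754 to 90226329, plus strand, overlapped by Scaf4 on the other strand), had 152, 64.8 and 59.7 CPM in microbead and 129, 91.1 and 47.2 CPM in contralateral libraries. It had 36.7, 31.8, 53.2 and 41.6 CPM in sham and 37.8, 48.5, 35.7 and 88.4 CPM in naive libraries. All microbead libraries lay above all sham libraries, whereas naive 4 lay above microbead 2 and 3. The log2 fold change was 1.17 against sham (SE 0.51, adjusted p = 0.475), 0.80 against naive (SE 0.51, adjusted p = 0.612) and 0.04 against contralateral retinas (SE 0.54, adjusted p = 0.994) in edgeR. Without microbead 1, the highest of the 14 libraries, it was 0.59 against sham, 0.23 against naive and 0.41 against both together.

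Sod2, the manganese enzyme of mitochondria on chromosome 17 (13006846 to 13040063, plus strand), had 81.1, 68.6 and 73.3 CPM in microbead libraries. It had 47.5, 0 and 26.9 CPM in contralateral, 39.6, 52.6, 54.0 and 40.2 CPM in sham and 22.0, 31.5, 55.6 and 38.3 CPM in naive libraries. The 3 microbead libraries were the 3 highest of the 14 and stood close together at 74.3 ± 6.34 CPM, against 24.8 ± 23.8 CPM in contralateral (SD, n = 3 each), 46.6 ± 7.76 CPM in sham and 36.8 ± 14.2 CPM in naive retinas (SD, n = 4 each). The fold of means was 1.59 against sham and 2.02 against naive. The biological coefficient of variation estimated for this gene over all 14 libraries was 0.811. The edgeR test gave log2 fold changes of 0.67 against sham (SE 0.93, adjusted p = 0.903) and 1.01 against naive (SE 0.93, adjusted p = 0.784). Against contralateral retinas the value was 1.58 (SE 1.02, adjusted p = 0.559), and without contralateral 2, which had 0 reads, it was 1.02.

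The peroxide-removing enzymes came next. Prdx1, a cytosolic peroxiredoxin on chromosome 4 (116685544 to 116700822, plus strand), had 81.1, 329 and 423 CPM in microbead and 70.2, 143 and 126 CPM in contralateral libraries. It had 210.1, 193, 155 and 152 CPM in sham and 116, 123, 163 and 135 CPM in naive libraries. Microbead 2 and 3 were the 2 highest libraries of the series, and microbead 1 was lower than all but contralateral 1. The log2 fold change was 0.65 against sham (SE 0.42, adjusted p = 0.645), 1.05 against naive (SE 0.42, adjusted p = 0.4005) and 1.299 against contralateral retinas (SE 0.46, adjusted p = 0.301) in edgeR. Without the 2 libraries under 12000 detected genes, microbead 1 and contralateral 2, it was 1.26 against sham and naive together (edgeR adjusted p = 0.0472). That fit called 60 of 15420 genes, and over 23 alternatives the adjusted p ranged from 0.0472 to 0.659. Without microbead 3 the log2 fold change against both together was 0.39.

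Gpx1, the selenium-dependent glutathione peroxidase on chromosome 9 (108338903 to 108340343, plus strand), had 545, 445 and 526 CPM in microbead and 445, 344 and 219 CPM in contralateral libraries. It had 344, 469, 251 and 292 CPM in sham and 302, 232, 239 and 427 CPM in naive libraries. The microbead libraries lay above all naive libraries but not above sham 2. The log2 fold change was 0.57 against sham (SE 0.31, adjusted p = 0.548), 0.75 against naive (SE 0.31, adjusted p = 0.411) and 0.59 against contralateral retinas (SE 0.33, adjusted p = 0.494) in edgeR.

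Cat, the catalase of peroxisomes on chromosome 2 (103453849 to 103485160, minus strand), had 85.5, 51.4 and 53.0 CPM in microbead and 27.8, 94.4 and 67.4 CPM in contralateral libraries. It had 25.8, 30.3, 4.25 and 34.2 CPM in sham and 60.5, 80.0, 53.7 and 23.9 CPM in naive libraries. Sham retinas had the lowest average here, though naive 4 and contralateral 1 lay within the sham range. All microbead libraries lay above all sham libraries, and they overlapped the naive ones. The log2 fold change was 1.42 against sham (SE 0.66, adjusted p = 0.498), 0.21 against naive (SE 0.66, adjusted p = 0.968) and −0.00 against contralateral retinas (SE 0.70, adjusted p = 1) in edgeR. Per length, Gpx1 stood above Cat in every library, by 19.8 to 36.6 times in microbead, 12.1 to 57.5 times in contralateral, 32.1 to 216 times in sham and 10.4 to 65.4 times in naive libraries.

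**Figure D2:**
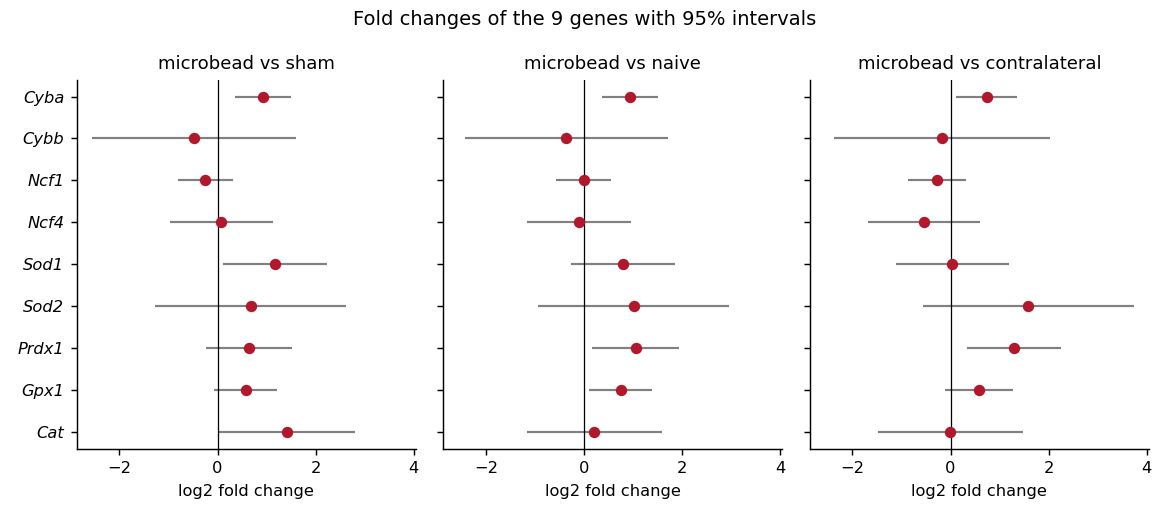
Log2 fold change of the 9 genes (horizontal axis) in microbead against sham, naive and contralateral retinas, with 95% intervals from edgeR. The intervals of Cyba lie right of 0 in all 3 panels before any adjustment over genes, with values of 0.93, 0.94 and 0.73 that became −0.04, −0.03 and 0.05 once a trend with transcript length was removed.

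Counted over the 9 genes, edgeR called 0 of 9 in microbead against sham, where it called 0.0140% of all 14279 genes tested. At an unadjusted p under 0.05 there were 3 of 9 (Cyba, Sod1 and Cat, all higher), beside 9.75% of all genes, and 4 of 9 had all microbead libraries above all sham libraries, beside 5.11%. Against naive retinas edgeR called 0 of 9, beside 0.210% of all genes, with 3 of 9 at an unadjusted p under 0.05 (Cyba, Prdx1 and Gpx1, all higher), beside 10.5%. In that comparison 3 of 9 had all microbead libraries above all naive libraries, namely Cyba, Sod2 and Gpx1, beside 4.85%. Against contralateral retinas it called 0 of 9, beside 0.0280%, with 2 of 9 at an unadjusted p under 0.05 (Cyba and Prdx1), beside 11.5%, and 1 of 9 without overlap, Sod2, beside 5.20%. Against sham and naive together it called 0 of 9, beside 1.28%, with 4 of 9 at an unadjusted p under 0.05 (Cyba, Sod1, Prdx1 and Gpx1), beside 12.0%, and 2 of 9 without overlap, Cyba and Sod2, beside 3.26%. The Wald test of DESeq2 called 1 of 9, Cyba, against sham (beside 3.24% of all genes), against naive (4.03%) and against both together (5.64%), and 0 against contralateral retinas (4.65%). Limma voom called 0 in all 4, beside 0.623%, 1.43%, 1.72% and 0.0210% of all genes in the same order. The median log2 fold change of the 9 genes was 0.65 against sham, 0.75 against naive, 0.04 against contralateral and 0.81 against sham and naive together, where the medians of all genes tested were −0.12, −0.14, −0.08 and −0.12. These comparisons share the microbead libraries. The members were chosen with earlier results of these data known, so the counts are no test of the 9 genes as a set. With the length trend described below removed, 1 of 9 had an unadjusted p under 0.05 in edgeR against sham and 1 against contralateral retinas. There were 0 against naive and 0 against sham and naive together. The shares of all genes at that limit were not counted in this setting.

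The contralateral and sham groups gave no called member either. In contralateral against naive retinas edgeR called 0 of 9 genes and 0% of all genes, and 0 of 9 had an unadjusted p under 0.05, beside 5.18% of all genes. In contralateral against sham retinas it called 0 of 9 and 0% of all genes, with 2 of 9 at an unadjusted p under 0.05, beside 4.86%. These were Sod1 with a log2 fold change of 1.13 (SE 0.51) and Cat with 1.42 (SE 0.65), both at an adjusted p of 0.963. Prdx1 was the 1 gene whose contralateral libraries all lay below the sham libraries, beside 3.88% of all genes, with a log2 fold change of −0.65 (SE 0.43). In sham against naive retinas edgeR called 0 of 9 and 0% of all genes, and 0 of 9 had an unadjusted p under 0.05, beside 2.66%. The largest value there was that of Cat, −1.21 (SE 0.62, adjusted p = 1). DESeq2 called 0 of 9 in all 3 of these comparisons, beside 0.497%, 0.504% and 0.196% of all genes, and limma voom 0 of 9, beside 0%. In the joint test of the 4 groups edgeR called 0 of 9, beside 0.224% of all genes, and limma voom 0 of 9, beside 0.609%, while DESeq2 called 1, Cyba, beside 3.35%. At an unadjusted p under 0.05 the joint edgeR test gave 2 of 9, Cyba and Prdx1, beside 8.17%, with adjusted p of 0.321 and 0.576.

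Transcript length moved with these differences. Among genes of at least 10 CPM, the log2 level relative to the naive mean was higher in genes of at most 1000 bases (863 genes) than in genes over 4000 bases (1328 genes) by 1.90, 0.79 and 1.26 in microbead libraries. The same measure was 0.46, 0.87 and −0.28 in contralateral, −0.05 to 0.15 in sham and −0.28 to 0.16 in naive libraries. All microbead libraries thus lay above all sham and naive libraries in this measure. In microbead against sham and naive retinas together, the median log2 fold change was 0.90 over the short and −0.25 over the long genes. Cyba (758 bases), Sod1 (646) and Gpx1 (930) are short, and Ncf4 (1021) and Prdx1 (1358) somewhat longer. Longer still are Ncf1 (2487), Cat (2613), Cybb (2889) and Sod2 (3824). These are means over the libraries, and the correction below used them. The estimate ran from 771 to 1350 bases in Ncf4, 1123 to 2288 in Prdx1 and 1900 to 2662 in Ncf1. It ran from 1060 to 4752 in Cybb and 900 to 1001 in Gpx1, and did not vary in Cyba, Sod1, Sod2 and Cat.

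When the length trend of each library was removed, Cyba had a log2 fold change of −0.04 against sham and naive together, Sod1 of −0.25 and Gpx1 of 0.03, against 0.93, 0.98 and 0.66 as counted. The values of the 4 longest members went up with the correction: Sod2 had 1.06 against 0.84 as counted, Cat 1.08 against 0.81, Ncf1 0.09 against −0.13 and Cybb −0.21 against −0.42. Prdx1 had 0.63 against 0.85, and Ncf4 −0.45 against −0.01. The median of the 9 genes was then 0.03, beside −0.15 over all genes tested, and edgeR called 0 of 9. Over the 14 libraries, Pearson's r of a gene's log2 CPM with the length measure was 0.902 for Cyba, 0.717 for Sod1, 0.739 for Gpx1 and −0.638 for Cybb. It was 0.017 for Ncf1, −0.341 for Ncf4, −0.058 for Sod2, 0.060 for Prdx1 and 0.297 for Cat. Without the 2 libraries farthest from the median in that measure Cyba had 0.659, Sod1 0.661, Gpx1 0.588 and Cybb −0.561, while Ncf1 had 0.276, Ncf4 0.163, Sod2 −0.52, Prdx1 0.161 and Cat 0.092. All points share the library as their source. The part of RNA quality or library preparation in the length trend was not tested. The codes in the deposited library names separate the microbead and contralateral libraries from the sham and naive libraries. What these codes stand for is not stated, so anything that goes with them cannot be told apart from that split of groups.

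**Figure D3:**
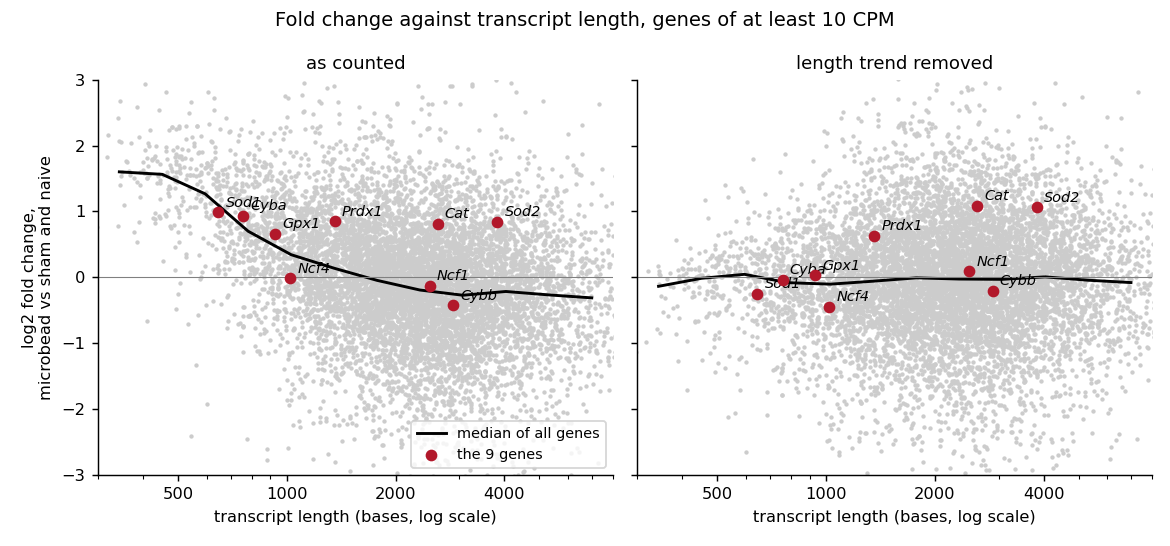
Log2 fold change in microbead against sham and naive retinas (vertical axis) by transcript length in bases (horizontal log axis) for genes of at least 10 CPM in grey and the 9 genes in red, as counted on the left and with the length trend of each library removed on the right. The black line is the median of all genes; Sod1, Cyba and Gpx1 lie near it on both sides, at 0.98, 0.93 and 0.66 on the left and −0.25, −0.04 and 0.03 on the right, while Sod2, Cat and Prdx1 lie above it on both.

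The members varied together only in part. Over the 14 libraries, log2 CPM of Cyba had a Pearson's r of 0.698 with Sod1 and 0.601 with Gpx1, and Sod1 of 0.530 with Gpx1. The membrane pair had an r of −0.579, and Cybb of −0.709 with Sod1. By ranks (Spearman) these were −0.393 and −0.565. Microbead 1, with the highest Cyba and Sod1 levels and 3 reads of Cybb, is among these points. Points share their library and its depth and length trend. Among 8139 genes of at least 10 CPM, with unnamed and predicted genes and pseudogenes left out, the 5 most like Cyba over the libraries were Fcer1g (r = 0.930), Sh3bgrl3 (0.927), Rpl35 (0.920), Ptpn18 (0.918) and Rpl17 (0.918), which are 673 to 1019 bases long. The 5 most like Cybb were Tmx3 (0.952), Hnrnpf (0.904), Zfp866 (0.903), Mettl5 (0.900) and Rnf139 (0.898). Sod1 stood above Sod2 per length in every library in which Sod2 had reads, by 8.03 to 16.4 times in microbead, 17.9 and 25.1 times in contralateral, 6.10 to 10.3 times in sham and 6.35 to 23.0 times in naive libraries.

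Among 7 partners of the oxidase, 6 were tested, and Cybc1 was not analysed here. In microbead against sham and naive retinas together 1 had a positive value and 5 had negative ones, with a median log2 fold change of −0.46 beside −0.12 over all genes. Without microbead 1 and contralateral 2 the median was −0.18 (2 positive, 4 negative) beside −0.11, and with the length trend removed −0.27 beside −0.15. The tools edgeR, DESeq2 and limma voom each called 0 of 6, beside 1.28%, 5.64% and 1.72% of all genes in that order, and 1 had an unadjusted p under 0.05 in edgeR, beside 12.0%. Nrros, which in mouse phagocytes lowers the stability of the Cybb protein, averaged 204 ± 66.995 CPM in microbead and 305 ± 67.7 CPM in contralateral retinas (SD, n = 3 each), and 265 ± 35.5 CPM in sham and 309 ± 92.8 CPM in naive retinas (SD, n = 4 each). Prkcd, a kinase that phosphorylates Ncf1, averaged 367 ± 146 CPM in microbead, 669 ± 245 CPM in contralateral, 472 ± 48.2 CPM in sham and 417 ± 104 CPM in naive retinas.

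Rac1, a small GTPase that activates the oxidase, had 214, 192 and 61.8 CPM in microbead, 80.2, 66.5 and 66.1 CPM in contralateral, 109, 57.2, 172 and 362 CPM in sham and 441, 350.3, 275 and 312 CPM in naive libraries. Against naive retinas the edgeR log2 fold change of Rac1 was −1.15 in microbead (SE 0.51) and −0.98 in sham retinas (SE 0.46). In microbead against contralateral retinas it was 1.13 (SE 0.53). Sham 4 lay among the naive libraries. In contralateral against naive retinas its log2 fold change was −2.28 (SE 0.53) with an unadjusted p of 0.00044 and an adjusted p of 0.949 in edgeR. DESeq2 called it there with an adjusted p of 0.00715, beside 0.497% of all genes. Without the filter on low counts edgeR called it too, with 0.00117, beside 21 of 25656 genes. Its joint edgeR test over the 4 groups gave an adjusted p of 0.210. Rap1a, a GTPase found with the membrane pair, had 10.8, 8.14 and 51.1 CPM in microbead, 56.1, 38.2 and 48.2 CPM in contralateral, 40.1 to 65.3 CPM in sham and 35.6 to 91.7 CPM in naive libraries. Its log2 fold change against sham and naive together was −1.25 (SE 0.59, edgeR adjusted p = 0.413). Without microbead 3, the library of highest Rap1a among the 3, it was −2.60 with an edgeR adjusted p of 0.0452. That fit called 285 of 15306 genes, and over 23 alternatives the adjusted p ran from 0.0452 to 0.655.

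The other NADPH oxidases had few or no reads at this depth. Of 9 listed genes, Nox3, Noxa1 and Duox2 had 0 reads, Nox1, Nox4, Duox1 and Duoxa2 averaged at most 0.0789 CPM, and Noxo1 and Duoxa1 had enough reads to be tested. The tools edgeR, DESeq2 and limma voom called 0 of these 2 in microbead against sham and naive retinas together, beside the shares of all genes given above, and 0 had an unadjusted p under 0.05 in edgeR. Noxo1, an organizer subunit of the NOX1 oxidase, averaged 17.6 ± 16.9 CPM in microbead and 9.44 ± 8.37 CPM in contralateral retinas (SD, n = 3 each), and 8.37 ± 8.58 CPM in sham and 16.4 ± 7.79 CPM in naive retinas (SD, n = 4 each).

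Of 28 other thiol and peroxide antioxidants, 26 were tested, and Sod3 and Gpx8 had 0 reads. In microbead against sham and naive retinas together 18 had positive and 8 negative values, with a median log2 fold change of 0.47 beside −0.12 over all genes, and edgeR called 1 of 26, beside 1.28% of all genes. At an unadjusted p under 0.05 there were 3 of 26, beside 12.0%. With the length trend removed 17 had positive and 9 negative values, with a median of 0.29 beside −0.15, and edgeR called 0. Prdx5, a peroxiredoxin of mitochondria, peroxisomes and cytosol, was that gene. It had 408, 203 and 267 CPM in microbead, 163, 148 and 108 CPM in contralateral, 191, 119, 144 and 96.3 CPM in sham and 80.3, 122, 83.6 and 140.1 CPM in naive libraries. Every microbead library lay above every sham and naive library, as in 3.26% of all genes tested, and above every contralateral library, as in 5.20%. Its level rose by 1.27 on the log2 scale in microbead against sham and naive retinas together (SE 0.29, edgeR adjusted p = 0.0375). With 984 bases it is a short gene, and the value was 0.67 with an adjusted p of 0.444 once the length trend was removed, and 0.93 with an adjusted p of 0.280 without microbead 1. The adjusted p was 0.0551 in limma voom, and over 23 alternatives it ran from 0.00271 to 0.444, with the call kept in 9 of them.

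Txn1, the cytosolic thioredoxin that recycles peroxiredoxins, averaged 50.4 ± 18.6 CPM in microbead and 28.4 ± 13.1 CPM in contralateral retinas (SD, n = 3 each), and 21.3 ± 5.28 CPM in sham and 17.7 ± 8.96 CPM in naive retinas (SD, n = 4 each). Its log2 fold change was 1.38 (SE 0.59, edgeR adjusted p = 0.372). Txnrd1, the reductase that recycles thioredoxin, averaged 4.28 ± 3.01 CPM in microbead, 2.28 ± 3.95 CPM in contralateral, 13.5 ± 14.1 CPM in sham and 20.3 ± 8.87 CPM in naive retinas. Prdx2, a close relative of Prdx1, averaged 110 ± 64.1 CPM in microbead, 149 ± 75.2 CPM in contralateral, 72.3 ± 14.7 CPM in sham and 60.9 ± 18.4 CPM in naive retinas.

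Of 14 genes of the NRF2 pathway, 13 were tested, and Nqo1 had 0 reads. In the same comparison 6 had positive and 7 negative values, with a median of −0.01 beside −0.12 over all genes. That balance moved with the setting: it was 9 positive and 4 negative with a median of 0.19 once the length trend was removed, and 8 and 5 with a median of 0.43 without microbead 1 and contralateral 2. The edgeR test called 0 of 13, beside 1.28% of all genes, with 1 at an unadjusted p under 0.05, beside 12.0%. DESeq2 called 1, Mt1, beside 5.64%, and limma voom 0, beside 1.72%. Against sham, naive and contralateral retinas singly DESeq2 called 0, 1 (Mt1) and 2 (Mt1 and G6pdx), beside 3.24%, 4.03% and 4.65% of all genes. The edgeR test called 0 of 13 in each. Mt1, a metal-binding metallothionein, had 238, 115 and 78.5 CPM in microbead, 48.5, 9.77 and 33.5 CPM in contralateral, 49.5 to 64.3 CPM in sham and 33.9 to 59.5 CPM in naive libraries. Its microbead libraries lay above all sham and naive libraries, as in 3.26% of all genes tested, and above all contralateral libraries, as in 5.20%. The log2 fold change of 1.55 (SE 0.44) had an adjusted p of 0.116 in edgeR and 0.0162 in DESeq2, the lowest of 23 alternatives that reached up to 0.983. Mt1 has 540 bases, and the value was 0.09 once the length trend was removed. Without microbead 1 it was 0.96 with an adjusted p of 0.6005.

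G6pdx, the enzyme that makes NADPH in the pentose phosphate pathway, had 5.03, 53.9 and 13.4 CPM in microbead, 90.1, 254 and 59.3 CPM in contralateral, 16.7 to 72.0 CPM in sham and 47.4 to 63.0 CPM in naive libraries. Contralateral 2 was far above the rest. In microbead against contralateral retinas the log2 fold change was −2.46 (SE 0.77), with an adjusted p of 0.229 in edgeR and 0.0276 in DESeq2. Against sham and naive retinas together the edgeR value in microbead retinas was −1.16 (SE 0.65, adjusted p = 0.478). It ran from −2.54 without microbead 2 to −0.72 without microbead 1. Taldo1, another enzyme of that pathway, averaged 189 ± 93.5 CPM in microbead, 187 ± 71.8 CPM in contralateral, 116 ± 32.7 CPM in sham and 124 ± 11.1 CPM in naive retinas. Sqstm1, an autophagy adaptor that frees NRF2 from Keap1, averaged 412 ± 354 CPM in microbead, 373 ± 25.8 CPM in contralateral, 378 ± 93.5 CPM in sham and 236 ± 85.7 CPM in naive retinas. Nfe2l2, which encodes NRF2, had a log2 fold change of −0.15 (SE 0.30) and its inhibitor Keap1 of 0.08 (SE 0.50).

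**Figure D4:**
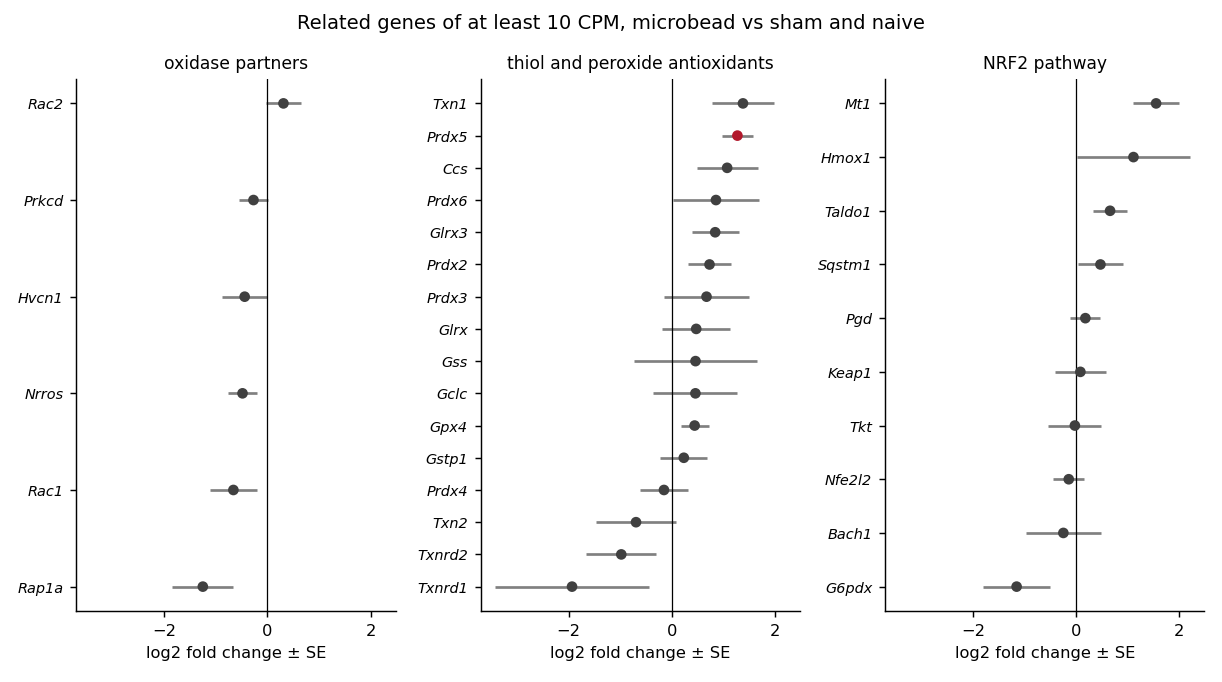
Log2 fold change ± SE (horizontal axis) in microbead against sham and naive retinas together for the related genes of at least 10 CPM, in 3 panels for oxidase partners, thiol and peroxide antioxidants, and the NRF2 pathway. Prdx5 in red, at 1.27, is the gene past an adjusted p of 0.05 in edgeR, and its value was 0.67 once the length trend was removed.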

How the data were processed

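SMART-Seq2 libraries of sorted microglia from 14 retinas were grouped by the labels into microbead (3), contralateral (3), sham (4) and naive (4). Per the file headers each library has a table with expected counts, which are reads estimated per gene and not scaled by the authors, and with FPKM and TPM, which the authors scaled to transcript length and depth. A deposited table of FPKM for all libraries names 47273 of 47729 gene identifiers, and in 0 cells did it depart from the tables of single libraries by over 0.006. Salmon 1.4.0, R 4.0.3, DESeq2 1.30.1 and mm10 are named without roles, per the submitters' processing notes. Headers follow RSEM's naming. Which tool wrote the tables, and whether strand was used, are not given in the sources used here. Genes on the opposite strand overlap Cyba, Ncf1 and Sod1, and reads of such a pair cannot be told apart if strand was not used.

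These counts, rounded to whole numbers, went into edgeR 4.0.16 under R 4.3.3. The filter filterByExpr (minimum count 10) left 14279 genes, including all 9 members. Library sizes were scaled by TMM, and 1 quasi-likelihood model (glmQLFit, robust) without covariates was fitted to all libraries, tested with glmQLFTest (two-sided) and adjusted by Benjamini-Hochberg over all genes. Intervals are 95% intervals of that model and are not adjusted over genes. Limma 3.58.1 (voom with quality weights) and DESeq2 1.42.0 were alternatives. The length trend is a per-library lowess fit (span 0.5) of log2 CPM against transcript length, over the 8718 genes with a mean of at least 10 CPM, taken out as offsets. Coordinates are from GENCODE M21 and promoters from RefSeq. The edgeR procedure was also run on simulated counts for microbead against naive retinas. Those counts held no length trend, so that run does not bear on the length correction or on the other comparisons.

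Every member is given, and 1 gene listed as an oxidase partner is not reported here. Of 4 related lists, genes past the threshold and up to 4 genes with the smallest joint p at a mean of at least 10 CPM are named, and Nfe2l2 and Keap1 were added after their values had been seen. Members and lists were chosen with earlier results of these data known. Totals ran from 1340512 to 13995779 reads, so levels of a few CPM in microbead 1 rest on a few reads.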

Additional observations from a re-analysis of the deposited data

Results flagged for a closer look

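Among 44 sets of 4 libraries examined for a library far from the others (sham and naive, for each member and named gene), 2 held one, and chance gives about 1 in 20. Ncf4 had 53.4 CPM in sham 1, against 80.4 to 85.4 CPM in the other sham libraries, a gap of 0.845 of the group's range, which is above Dixon's 95% critical value for 4 values. Taldo1 had 107 CPM in naive 3, against 129 to 130.3 CPM in the other naive libraries, a gap of 0.932 of the range, above the same value.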

How the results depend on the processing

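Calls of a member depended on the method in the microbead comparisons. With edgeR on all libraries 0 of 9 genes were called in any comparison, and in microbead against sham and naive together 1 was called with the size factors of DESeq2 (Cyba), with the compared groups alone (Cyba), with the Wald test of DESeq2 (Cyba) and without the 2 libraries under 12000 genes (Prdx1). Leaving out each library in turn gave 0 to 1. The call was Cyba without microbead 2 (beside 161 of 15458 genes), contralateral 1 (208 of 15448) or contralateral 3 (202 of 15211). DESeq2 also called 1 gene, Cyba, against sham, against naive and in the joint test. Counts over all genes moved too. Against sham and naive together 183 of 14279 genes were called in edgeR, 216 with the size factors of DESeq2 and 10 with the length trend removed. The count was 359 of 25656 without a filter, 60 of 15420 without the 2 libraries and 315 of 13794 with the compared groups alone. The Wald test of DESeq2 called 805 of 14279.

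A sign was counted as turned only where the value as reported was past 1 SE. With the length trend removed, Cyba turned to −0.04 against sham, −0.031 against naive and −0.036 against both together, Sod1 to −0.076, −0.42 and −0.25, and Gpx1 to −0.060 against sham, and the correction by its construction lowers short genes in these libraries. Without the 2 libraries Ncf1 in contralateral against naive turned to −0.10. Leaving out single libraries, it ran from −0.10 (without contralateral 2) to 0.38, Ncf4 in contralateral against sham from −0.16 (without contralateral 1) to 0.87, and Sqstm1 in microbead against sham and naive from −0.39 (without microbead 3) to 0.94 (without microbead 1). The cause was not tested. Of 1748 gene results under alternatives, 123 changed sign, 11 of them from a value past 1 SE, and 13 newly passed the threshold.

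Replicate numbers share no stated mouse or batch, so the numbers were not taken as pairs. Of 19 same-numbered pairs 1 had a correlation of deviations over 0.1, contralateral 3 with naive 3 (0.108). The highest value between different numbers was 0.085, and 7 of 14 libraries matched best with a library of their own number. Such low values cannot settle whether the numbers mark pairs. With the replicate number as a block 0 of 9 genes were called in every comparison, 70 genes of all were called in microbead against sham and naive together, and Cyba had 0.89 there with an adjusted p of 0.214. Cybb in microbead 1 rests on 3 reads.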
